A study of Mus musculus with 6 samples.

Results

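Malat1-rich rods were the rod photoreceptors of the mouse retina in which the nuclear non-coding RNA Malat1 made up 25% or more of all transcripts read. A cell entered this class when the authors had typed it as a photoreceptor, when it held at least 200 UMIs (unique molecular identifiers, each a counted transcript molecule), at most 1 UMI over the cone genes Opn1sw, Opn1mw, Arr3, Gnat2, Pde6h and Pde6c, and at least 25% Malat1. This gave 3472 Malat1-rich rods among 31595 rods, 42359 photoreceptors and 46375 cells in all. The remaining 28123 rods of the same retinas, under 25% Malat1, were the cells they were compared with. The cells were thus chosen by their measured Malat1, cone-gene and total UMIs, so these values are given as a description with no test, except that the share of rods in the class was compared between genotypes, and Malat1 was left out of every other level. The cone genes were left out of gene levels in CPM and of the tests of single genes, but not of the totals behind percentages of UMIs without Malat1.

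The cells came from whole retinas of 12-month-old male C57BL/6J mice, 3 of them Dram2 wt/wt and the other 3 ko/ko for Dram2. Dram2 encodes a lysosomal membrane protein, and the ko/ko mice carried a CRISPR deletion of exon 4 in every cell of the body, so no cell type was targeted. Retinas were dissociated with papain and single cells were read at the 3′ end of their transcripts on the 10x Genomics platform. Replicate 3 of each genotype was batch 1 and replicates 1 and 2 were batch 2, and a replicate is 1 library of 1 retina.

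Rods carry dim-light vision. Light absorbed in the discs of the outer segment activates transducin, which activates the phosphodiesterase PDE6, and cyclic nucleotide-gated channels then close. The inner segment is packed with mitochondria, the small cell body holds little more than the nucleus, and a fine axon ends in a ribbon synapse. Malat1 is a long non-coding RNA that stays in the nucleus at speckles, the compartments where splicing factors gather, whereas mitochondrial transcripts and most spliced mRNAs lie outside the nucleus.

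The libraries held 3463728 to 6563762 UMIs each, and the median rod held 428 to 630 UMIs. Cell names in the deposited table are running numbers, so barcodes shared between libraries could not be counted. Dram2 was read 109, 140 and 317 times in the wt/wt libraries and 95, 149 and 351 times in the ko/ko libraries, in replicate order. A 3′ read falls outside the deleted exon, so these counts neither check nor contradict the genotype labels. In Malat1-rich rods Dram2 had only 2 to 11 UMIs per retina.

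The Malat1 share of rods was spread over a broad main peak with a second, narrow peak near 0. Of all rods, 5765 held under 5% Malat1 and 2788 held 5 to 10%. Counts then rose to 5901 rods at 10 to 15% and 7755 at 15 to 20%, and fell to 5914 at 20 to 25%. Above the limit there were 2554 rods at 25 to 30%, 706 at 30 to 35%, 178 at 35 to 40%, 26 at 40 to 45% and 8 above 45%, up to 49.4%. The Malat1-rich rods were thus the upper tail of the main peak, with no gap at the limit. The 885 rods at 24 to 25% had a median of 97 Malat1 UMIs among 399 UMIs, and the 742 rods at 25 to 26% had 99 among 388.5. Because no break set the class apart and no nuclear preparation was sequenced beside the cells, the rods are named here for their Malat1 share and not as nuclei.

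**Figure D1:**
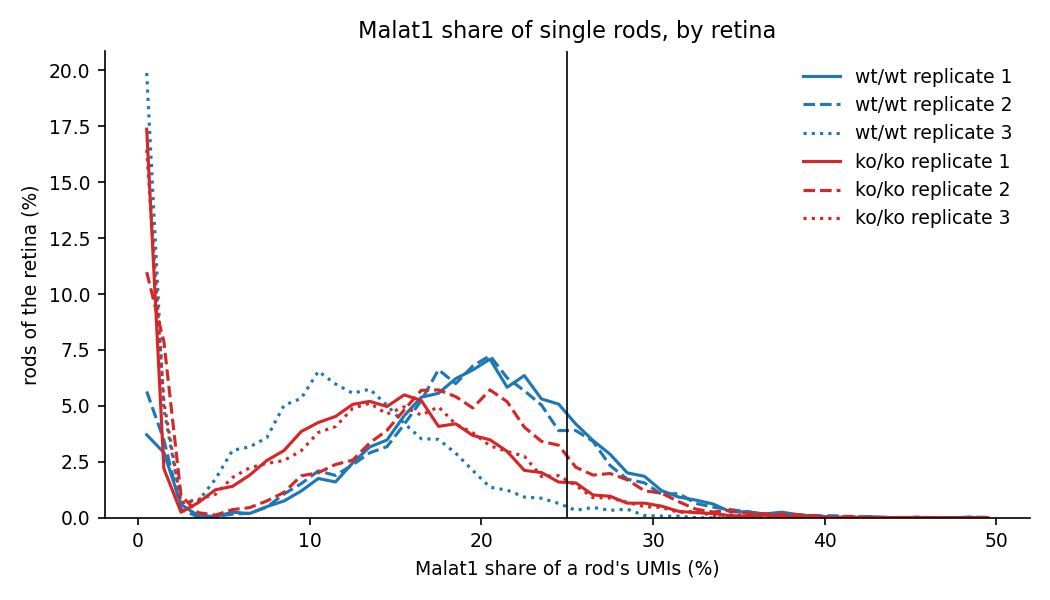
Percent of the rods of each retina (y axis) in steps of 1% of the Malat1 share of a rod's UMIs (x axis), with the 25% limit as a vertical line. Blue lines are the 3 wt/wt and red lines the 3 ko/ko retinas. All retinas show a peak near 0 and a broad main peak, and the main peak lies furthest left in wt/wt replicate 3.

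The place of the main peak differed between retinas. The median Malat1 share of all rods was 19.8% in wt/wt replicate 1, 19.4% in wt/wt replicate 2, 10.3% in wt/wt replicate 3, 13.3% in ko/ko replicate 1, 17.1% in ko/ko replicate 2 and 13.2% in ko/ko replicate 3. Within the Malat1-rich class the median share varied little, from 27.1% to 28.1%. To see how much of a cell's class came from counting error, each rod's UMIs were divided at random into 2 parts of equal size. Rods with at least 25% Malat1 in one part averaged 27.3% to 29.0% there and 25.4% to 27.2% in the part not used for the choice, against 9.87% to 19.1% over all rods of the retina. Between 56.4% and 63.8% of the chosen rods reached the limit again in the second part.

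Malat1-rich rods held fewer UMIs than the other rods. Their median was 355.5, 382.5 and 297 UMIs in wt/wt replicates 1 to 3 and 347, 357 and 327.5 in the ko/ko replicates, against 467, 491 and 637 and 436, 493 and 620 in the other rods. The total is the denominator of the share that chose them, so this difference is in part built into the class and was not tested. Malat1 itself did not stand at a low count: the median Malat1-rich rod held 81 to 109 Malat1 UMIs per retina and the median other rod 50 to 87. Malat1-rich rods were 1137 of 5619 rods with 200 to 300 UMIs, 1905 of 11298 with 300 to 500, 428 of 12974 with 500 to 1000 and 2 of 1704 above that. When each cell with enough UMIs was thinned to 150 UMIs without Malat1, Malat1-rich rods had a mean of 134 to 138 genes per cell and the other rods 128 to 136, while the unthinned medians were 189 to 252 and 311 to 427 genes. Thinning left out 5 to 50 Malat1-rich rods per retina and no other rod.

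Levels of rod marker genes in the class are given as a description. The rule names none of them, but it starts from the photoreceptor type that the authors assigned by clustering. Their presence is therefore in part built in. Levels are given in CPM, UMIs scaled to the usual common total after Malat1 and the cone genes were left out, as mean ± SD over the 6 retinas. Nrl, the transcription factor that sets rod fate, was at 1934 ± 203 in Malat1-rich rods and 2594 ± 288 in the other rods. Its levels were 1781, 2011 and 1633 in the wt/wt and 2159, 1899 and 2120 in the ko/ko Malat1-rich rods, and it was lower than in the other rods of the same retina in all 6. Nr2e3, which represses cone genes in rods, was at 1884 ± 107 against 1950 ± 119. The rod markers Gnat1 and Sag stood at 5699 ± 1082 and 9345 ± 1290, so these 4 rod markers were present in the class. Their levels in other cell types were not compared here.

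The first comparison asked whether loss of Dram2 went with a change in the share of Malat1-rich rods. They were 996 of 5176 rods in wt/wt replicate 1 (19.2%, Wilson 95% interval 18.2% to 20.3%), 956 of 5438 in replicate 2 (17.6%) and 69 of 3879 in replicate 3 (1.78%, 1.41% to 2.25%). In the ko/ko retinas they were 341 of 5188 in replicate 1 (6.57%), 730 of 5704 in replicate 2 (12.8%) and 380 of 6210 in replicate 3 (6.12%). These intervals cover counting error only. The wt/wt values enclosed the ko/ko values on both sides, with means of 12.9% ± 9.64 and 8.50% ± 3.73 (SD, n = 3). The difference of -4.37 percentage points was within the spread between retinas (two-sided exact permutation test, p = 0.5; 3 against 3 retinas cannot go below 0.1). It was -1.18 without wt/wt replicate 1, -2.01 without wt/wt replicate 2 and -9.92 without wt/wt replicate 3. The 2 batches differed in sign: ko/ko minus wt/wt was 4.34 points in batch 1, with 1 retina each, and -8.73 points in batch 2, where both wt/wt values lay above both ko/ko values.

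The same 200 UMI and 25% limits were then applied to the other cell types of the same retinas. Interneurons held 20 Malat1-rich cells among 2069, or 0% to 1.85% per retina, and rods exceeded them in all 6 retinas by 9.86 points on average (SD of the differences 7.14). The share rests on the same Malat1 limit that chose the rods, so cell types are set side by side with no test. Cone-marked photoreceptors, those with at least 2 UMIs of the cone genes, held 121 among 2560, or 0.147% to 9.44% per retina. The mean difference from rods was 5.38 points, and the 2 classes were split by their cone UMIs, and a cell with a high Malat1 share has fewer UMIs left in which cone transcripts can be read. Glia held 76 among 937, or 2.23% to 27.9%, and rods exceeded them in 3 of 6 retinas (difference -0.34 points, SD 6.18). Retinas with many Malat1-rich rods also had many Malat1-rich glia and cone-marked cells. None of 115 pigment epithelium (RPE) cells and none of 245 mesenchymal cells reached the limit. With cells pooled over retinas this allows shares of up to 2.61% and 1.22%, which cover counting error only and not the spread between retinas.

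**Figure D2:**
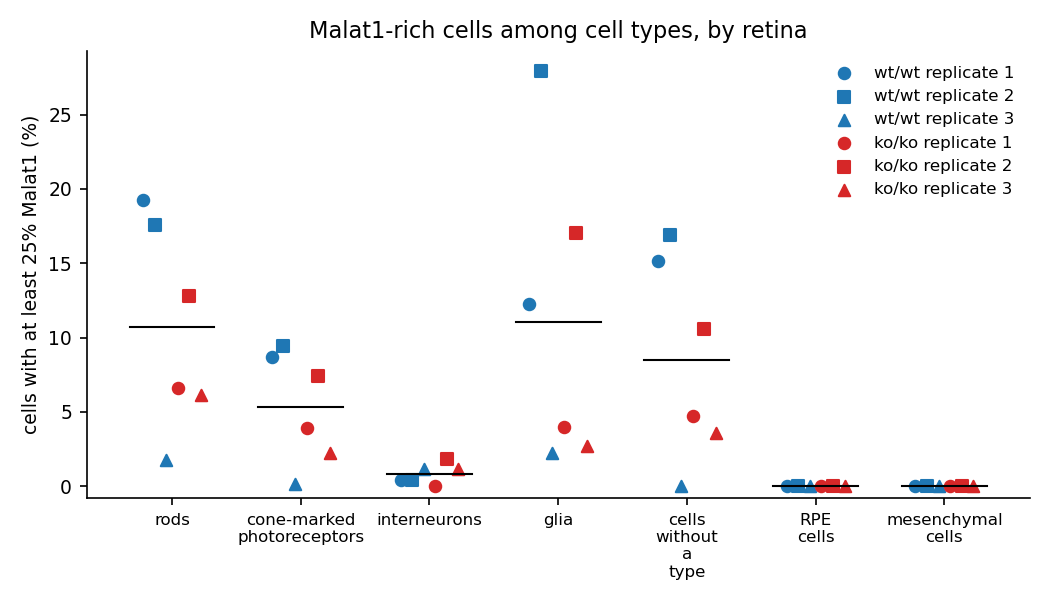
Percent of cells with at least 25% Malat1 (y axis) in each cell type (x axis), 1 point per retina and a line at the mean. Rods lie above interneurons in all 6 retinas, and glia reach 27.9% in wt/wt replicate 2.

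These types differ in depth: the median rod held 428 to 630 UMIs per retina, the median cone-marked photoreceptor 679 to 953.5, the median interneuron 1533 to 2289 and the median glial cell 1408 to 1807. With every cell thinned to 200 UMIs the difference to interneurons was 11.6 points, and that to glia changed sign to 1.42. Among cells with at least 500 UMIs the difference to interneurons was 2.36 points, and rods were below glia by -8.24 points in all 6 retinas. In numbers of Malat1 UMIs, the median rod held 52 to 91, the median interneuron 110 to 165 and the median glial cell 40 to 319.

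Transcripts of the mitochondrial genome were scarcer in Malat1-rich rods. They made up 0.196%, 0.241% and 1.40% of the UMIs without Malat1 in wt/wt replicates 1 to 3 and 0.415%, 0.273% and 1.47% in the ko/ko replicates, against 0.404%, 0.449% and 3.46% and 0.743%, 0.610% and 3.05% in the other rods. The share was lower in Malat1-rich rods in all 6 retinas, by -0.79 points on average (SD 0.82, n = 6; exact sign-flip test, p = 0.03125, the smallest possible). The mean difference was -0.27 points in the 4 retinas of batch 2 and -1.83 in the 2 of batch 1, where the level itself was several times higher in both classes. Against only those other rods with 10 to 25% Malat1 the share was again lower in all 6 retinas, and those rods stood at 0.336%, 0.364% and 2.32% in the wt/wt and 0.513%, 0.441% and 2.21% in the ko/ko retinas. Here the mean difference was -0.366 points (exact sign-flip test, p = 0.03125). When only the depth of both classes was limited, to 150 to 400 UMIs without Malat1, it was -1.02 points (exact sign-flip test, p = 0.03125). With both limits together the difference was -0.535 points and no longer passed (exact sign-flip test, p = 0.0625). It was thus not smaller in size than with the 10 to 25% limit alone.

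**Figure D3:**
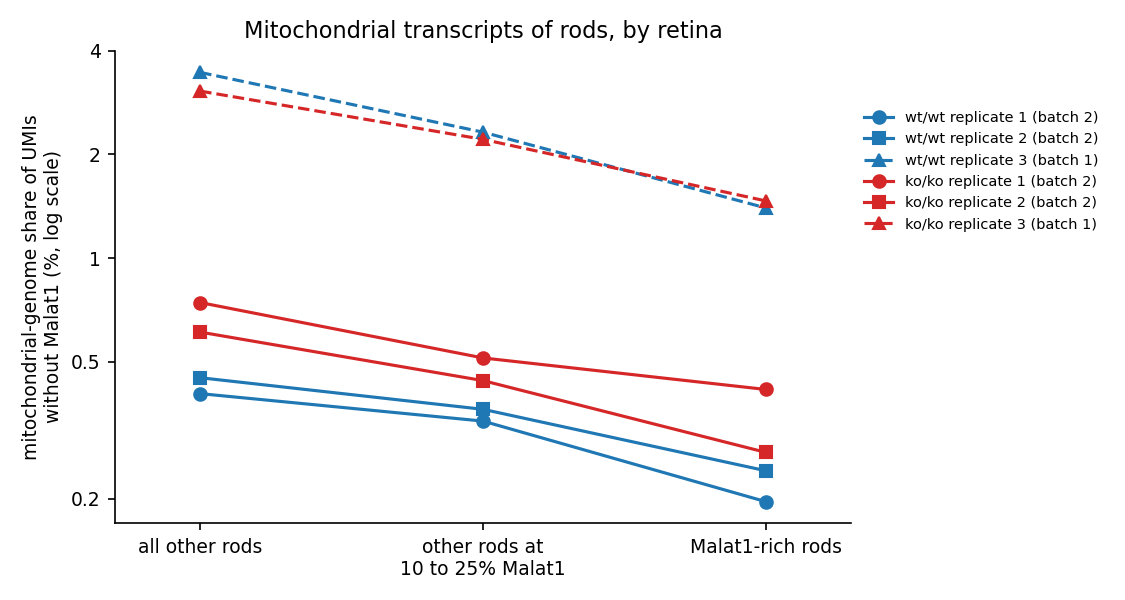
Mitochondrial-genome share of UMIs without Malat1 (y axis, log scale) in all other rods, in other rods at 10 to 25% Malat1 and in Malat1-rich rods (x axis). Each line is 1 retina, dashed for batch 1; all 6 lines fall towards the Malat1-rich rods.

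Within Malat1-rich rods the mitochondrial share had a mean of 0.612% ± 0.681 in the 3 wt/wt retinas and of 0.718% ± 0.651 in the 3 ko/ko retinas (± SD). The difference of 0.11 points was smaller than the SDs, which hold the difference between batches (exact permutation test over all 6 retinas, p = 0.5, smallest possible 0.1). Within each batch every ko/ko value lay above every wt/wt value. The difference was 0.067 points within batch 1 and 0.13 points within batch 2. Over all retinas it turned to -0.102 without wt/wt replicate 1, -0.079 without wt/wt replicate 2 and -0.268 without ko/ko replicate 3, where the batches are no longer balanced between genotypes, and to -0.132 at a 30% Malat1 limit.

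For single genes, UMIs were summed per retina and class and compared within retinas (edgeR quasi-likelihood test, retina as a block, Benjamini-Hochberg adjustment over 9859 genes). Differences are on the log2 scale, Malat1-rich minus other. At an adjusted p under 0.05, 772 genes were higher in Malat1-rich rods (7.83% of those tested) and 1313 lower (13.3%), and the median gene stood at 0.03. These calls include 2 genes that lie inside Malat1 itself. The scale matters to the direction of weak differences: TMM factors centre the bulk of genes, and with total UMIs alone all differences moved up by a median of 0.18, giving 1669 higher (16.9%) and 911 lower (9.24%). With total UMIs the rod synapse list turned from 2 higher and 4 lower to 7 higher and 3 lower. The medians of the immediate early list (-0.04 to 0.16), the glial markers (-0.09 to 0.13) and the inner-segment list also changed sign.

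The comparison class also decides how many genes are called. When the other rods were limited to those with 10 to 25% Malat1, which leaves out the peak near 0, 392 genes were higher (4.67%) and 627 lower (7.47%) of 8397 tested. When both classes were in addition limited to rods with 150 to 400 UMIs without Malat1, 8 were higher (0.159%) and 47 lower (0.937%) of 5017 tested, and all 55 were among the calls of the full comparison. Sums were smaller there. Of the 772 higher genes 612 could be tested and 585 kept their sign, and of the 1313 lower genes 938 could be tested and 866 kept it. The rods used there are part of the full comparison, so shared calls and signs are in part built in. This last comparison, within a shared range of depth but not matched further inside it, is given beside the lists as the strictest one.

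Of the called transcripts that are known to stay in the nucleus, Neat1 had the largest difference. Neat1, the scaffold RNA of paraspeckles, is encoded close to Malat1 but does not overlap it. Its level in Malat1-rich rods was 170, 205 and 117 CPM in wt/wt and 162, 222 and 92.2 in ko/ko, against 103, 97.8 and 44.1 and 90.4, 78.5 and 40.1 in the other rods. It was higher in all 6 retinas, although the 2 classes overlapped when retinas were pooled (log2 difference 0.90, SE 0.16, edgeR adjusted p = 2.05e-07). The Malat1-rich rods of wt/wt replicate 3 held only 17167 UMIs without Malat1. Its 117 CPM thus rest on very few Neat1 UMIs, and the direction in that retina says little. Kcnq1ot1, an imprinted antisense RNA, was higher by 0.64 and in 5 of 6 retinas (edgeR adjusted p = 0.000397). Of the 14 nuclear lncRNAs on the list 8 could be tested, 3 were higher and none lower, with a median of 0.32. Peg13 (-0.22), Tug1 (0.01) and Meg3 (-0.21) were not called. In the strictest comparison none of 5 was called and Neat1 stood at 0.34.

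Transcripts of splicing-speckle proteins and transcripts known to keep introns in the nucleus were higher as a list. All 19 could be tested, 12 were higher, none was lower, and the median was 0.45 against 0.03 over all genes. Pnisr, a speckle-associated protein, stood at 947 ± 159 CPM against 501 ± 88.0 (log2 difference 0.63, edgeR adjusted p = 2.72e-07). The splicing-factor kinase Clk1 stood at 416 ± 20.6 against 229 ± 48.3, and the cyclin Ccnl1 at 396 ± 64.6 against 208 ± 66.0. Ddx5, an RNA helicase and the member of highest level, was at 3463 ± 476 against 2342 ± 557 with a fitted difference of 0.32. Srrm1 (-0.05), Rbm39 (-0.08) and Srsf11 (0.03) were not called. In the strictest comparison 0 of 19 were called by edgeR, and the median was 0.15.

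The mitochondrial genome showed the opposite pattern. Of its 13 protein-coding genes 11 could be tested and all 11 were lower, with a median of -1.34. mt-Cytb, a subunit of complex III and the most read, was at 653, 810 and 4548 CPM in wt/wt and 1640, 931 and 5317 in ko/ko Malat1-rich rods, against 1385, 1568 and 11871 and 2698, 2187 and 10916 in the other rods. Batch 1 lay above batch 2 in both classes, and within each retina the Malat1-rich rods were lower (log2 difference -1.34, SE 0.14, edgeR adjusted p = 1.04e-20). mt-Atp6 was lower by -1.59 and mt-Co3 by -1.36. In the strictest comparison the median was -0.67 and 7 of 9 were called lower, with mt-Cytb at -0.68 and mt-Atp6 at -0.97. With total UMIs as the scale 10 of 11 were lower.

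Nuclear genes for the respiratory chain fell as well. Of 80 tested, 71 were lower and 1 was higher, with a median of -0.95. Ndufa4, the most read, stood at 775 ± 182 CPM against 2051 ± 456 (log2 difference -1.53, edgeR adjusted p = 6.29e-31), and Cox6c at 467 ± 97.3 against 1129 ± 198. The one higher gene was Ndufs1, a core subunit of complex I, at 151 against 93.1 CPM (log2 difference 0.49). Against rods at 10 to 25% Malat1 55 of 77 were lower, and in the strictest comparison 1 of 74, with a median of -0.23.

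Cytosolic ribosomal protein genes, which are short and highly translated, were lower in 66 of 82 cases and higher in none, with a median of -1.05. Rpl13a stood at 403 ± 72.2 CPM against 912 ± 202 (log2 difference -1.36, edgeR adjusted p = 6.09e-24) and Rps14 at 358 ± 76.7 against 897 ± 258. Rpl3 was lower by -1.86, but it shares sequence with pseudogene copies, as most genes of this family do, and its counts are uncertain. Against rods at 10 to 25% Malat1 39 of 82 were lower, and in the strictest comparison 1 of 56, Rpl3.

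Among glycolytic genes 14 of 17 were lower, none was higher, and the median was -0.72. Pkm, the pyruvate kinase, was at 1256, 1494 and 1341 CPM in wt/wt and 1443, 1317 and 1670 in ko/ko Malat1-rich rods, against 2378, 2790 and 3365 and 3449, 3101 and 3735 in the other rods. The classes did not overlap (log2 difference -1.34, SE 0.13, edgeR adjusted p = 1.77e-23), and Pkm was still lower by -0.43 in the strictest comparison (edgeR adjusted p = 1.02e-05). Aldoa, an aldolase, stood at 2563 ± 293 against 4120 ± 486. Pfkl, the liver-type phosphofructokinase, fell by 0.87. Hk2, the hexokinase bound to mitochondria (0.06), the glucose transporter Slc2a1 (0.12) and the lactate transporter Slc16a1 (0.23) were not called. With total UMIs as the scale 11 were lower and 2 higher.

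**Figure D4:**
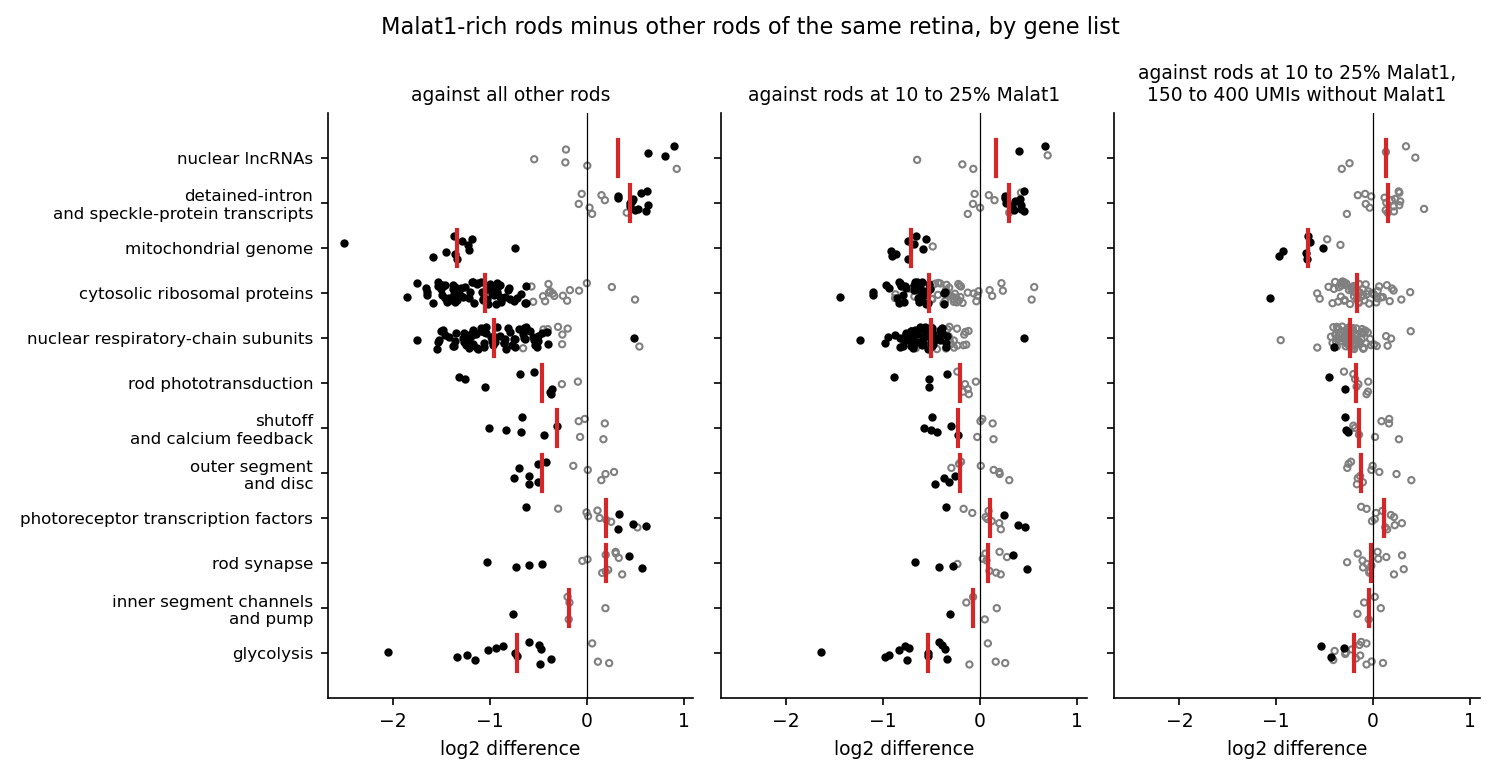
Log2 differences, Malat1-rich minus other rods (x axis), of the tested members of 12 gene lists (y axis), in the full comparison, against rods at 10 to 25% Malat1, and in the strictest one. Filled points passed an adjusted p of 0.05, open points did not, and red bars are list medians; most list medians, that of the mitochondrial genome included, lie nearer 0 in the strictest comparison, where 7 of 9 mitochondrial-genome genes are called lower.

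The rod's light-signalling genes did not move as one. Of 10 phototransduction genes 8 were lower and none was higher (median -0.46), but the sizes ranged widely. Gnb1, the β subunit of transducin, was at 6869, 6784 and 4956 CPM in wt/wt and 7216, 7141 and 6935 in ko/ko Malat1-rich rods, against 12207, 13228 and 13612 and 15113, 14534 and 14740 in the other rods. The classes did not overlap (log2 difference -1.32, SE 0.15, edgeR adjusted p = 1.46e-16). The transducin γ subunit Gngt1 (-1.26) and the inhibitory PDE6 subunit Pde6g (-1.06) fell by similar amounts, whereas the catalytic PDE6 subunits Pde6a (-0.09) and Pde6b (-0.26) were not called. In the strictest comparison Gnb1 (-0.46) and the channel subunit Cnga1 (-0.29) remained lower. With total UMIs as the scale 5 of 10 were lower.

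Of 11 genes for shut-off and calcium feedback 6 were lower. Rcvrn (recoverin), a calcium-binding protein, stood at 2558 ± 255 CPM against 4471 ± 800.2 (log2 difference -1.01, edgeR adjusted p = 2.95e-13). Pdc (phosducin), which binds transducin's βγ subunits, stood at 5208 ± 1046 against 7658 ± 1506 (-0.83), and Sag (arrestin) was lower by -0.67. Sag, Pdc and the guanylate cyclase activator Guca1a were the 3 still called in the strictest comparison, at -0.29, -0.28 and -0.26. The kinase gene Grk1 (-0.02) and the cyclases Gucy2e (-0.07) and Gucy2f (0.17) were not called.

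Of 12 genes of the outer segment and its discs 7 were lower, none was higher and the median was -0.46. Rom1, a disc-rim protein, was at 7419 ± 1512 against 8654 ± 1710 CPM (-0.50), and its partner Prph2 differed by -0.42. The photoreceptor cadherin Cdhr1 fell by 0.70. Rp1, a long axonemal protein transcript, stood at 3066 ± 788 against 2188 ± 801 CPM with a fitted difference of 0.28 that did not pass (edgeR adjusted p = 0.08), and passed with total UMIs as the scale. None of the 12 was called in the strictest comparison.

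Of 13 photoreceptor transcription factors tested, 4 were higher and Nrl was lower (-0.62, edgeR adjusted p = 6.92e-06), with a median of 0.20. Samd11, a repressor cofactor of photoreceptors, was at 3095, 3041 and 2449 CPM in wt/wt and 2413, 2973 and 2264 in ko/ko Malat1-rich rods, against 2038, 1863 and 964 and 1383, 1623 and 1065. All 6 Malat1-rich values exceeded all 6 others (log2 difference 0.62, SE 0.12, edgeR adjusted p = 3.03e-06). Neurod1 (0.33), Samd7 (0.47) and Casz1 (0.32) were also higher, and Crx (0.11) and Rorb (0.13) were not called. None was called in the strictest comparison, where Samd11 stood at 0.13. With total UMIs as the scale 8 were higher and 1 lower.

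Synaptic genes were called in both directions, beside 7.83% higher and 13.3% lower over all genes tested. The balance of their calls turned with total UMIs as the scale. Of 16 tested, 4 were lower: the SNARE genes Snap25 (-1.03), Stx3 (-0.60) and Vamp2 (-0.47), and the vesicular glutamate transporter Slc17a7 (-0.73). The calcium channel gene Cacna1f, at 445 ± 221 against 220 ± 19.8 CPM, and the active-zone gene Rims2, at 422 ± 128 against 269 ± 136, were higher (0.58 and 0.43). The synapse list median was 0.20, and no member was called in the strictest comparison. The median of the 5 genes tested on the list of inner-segment channels (-0.19) changed sign to 0.04 with total UMIs as the scale.

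Calls among genes of acute cell stress were too few to set apart from the shares over all genes tested, 7.83% higher and 13.3% lower. The immediate early and heat shock list summed to a mean of 1027 CPM in Malat1-rich rods and 849 in the other rods, higher in 6 of 6 retinas, and the stress and cell death list to 996 against 916, higher in 5 of 6. Against rods at 10 to 25% Malat1, whose mean was 1040, the stress and cell death list was higher in only 2 of 6 retinas, and the immediate early and heat shock list in 5. These sums are on the total-UMI scale. Of 10 immediate early and heat shock genes tested, Btg2, an anti-proliferative gene, was higher (0.40, edgeR adjusted p = 0.0109), and Fos (-0.44), Jun (0.15) and Hspa1a (-0.05) were not called. Of 5 stress and cell death genes none was called by edgeR: Bax stood at 0.16, Mdm2 at 0.20, Ddit3 at -0.33 and Atf4 at -0.12.

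The largest single differences follow from a fixed rule: genes called, at an edgeR average of at least 5 log2 CPM, in 1 direction in all 6 retinas. This average is weighted by depth and so rests mostly on the other rods. Genes low in Malat1-rich rods, such as the globins and Gapdh, could pass it through the other rods. Of the 12 largest increases, Gm27694 and Gm37376 lie inside the Malat1 gene (chromosome 19, 5795690 to 5802672, minus strand, GRCm38), Gm27694 on the same strand and Gm37376 on the opposite one. UMIs of Gm27694 cannot be told apart from Malat1, for Gm37376 this was not tested, and nothing is drawn from either. The largest of the others was Gm16262, annotated as an antisense RNA, at 444, 399 and 525 CPM in wt/wt and 266, 428 and 369 in ko/ko Malat1-rich rods, against 229, 205 and 91.3 and 76.8, 190 and 98.3. The classes did not overlap (log2 difference 1.08, SE 0.12, edgeR adjusted p = 5.89e-16), and it was also called in the strictest comparison at 0.71, whose 8 higher genes include both genes inside Malat1. The protein-coding genes among them were Gria2, a glutamate receptor subunit (0.96), the tRNA methyltransferase Trmt1 (0.95), the DNA polymerase Polk (0.94), the transporter-family member Slc22a29 (0.94), the adhesion protein Igsf9 (0.93) and Fam184a (0.93). Gm43571 (0.96), Gm42974 (0.94) and 6430590A07Rik (0.93) completed the list. Of the 10 genes outside Malat1, Gm16262, Igsf9 (0.49) and 6430590A07Rik (0.71) were called in the strictest comparison.

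Of the 12 largest decreases 5 were globin genes. Hba-a2 had 0 UMIs in Malat1-rich rods and 2937 in the other rods, at least 65.3-fold lower against a floor of 3 UMIs over the class. These UMIs came from few cells: 26028 of the 27008 globin UMIs of the other rods lay in 26 cells with at least 10% globin, of which 25 held under 5% Malat1. Against rods at 10 to 25% Malat1 the direction of Hbb-bs turned, to a log2 difference of 0.52 (edgeR adjusted p = 0.0409). The other 7 decreases were Gm10073 (-2.67), Nav3 (-2.39), Gm5244 (-2.22), Gapdh (-2.06), the mitochondrial tRNA gene mt-Tw (-1.995), Rpl3 (-1.86) and the tubulin cofactor Tbca (-1.85). Gapdh stood at only 4.72 CPM against 32.5; it has many near-identical copies in the genome and its counts are uncertain. Tbca was at a mean of 49.4 against 156 CPM and remained lower by -0.96 in the strictest comparison.

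The class of a gene in the annotation also separated the calls. Of 8355 protein-coding genes 6.50% were higher and 11.4% lower. Of 203 genes annotated as TEC, a category for transcribed regions that await experimental evidence, 62 were higher, Gm37376 inside Malat1 among them, and none was lower, of 178 antisense genes 46 were higher and 4 lower, and of 175 lincRNAs 41 were higher and 5 lower. Their median differences were 0.60, 0.35 and 0.40. Genes of low level could pass the level filter through the class where they were high, and how far this moved these counts was not tested. Of 604 processed pseudogenes 15 were higher and 301 lower, with a median of -1.01; such copies share sequence with their parent genes and their counts are uncertain. Against rods at 10 to 25% Malat1, 20 of 130 TEC genes were higher and none was lower. In the strictest comparison few calls were left: 1 of 50 TEC genes, Gm37376 inside Malat1, 2 of 73 antisense genes and 0 of 82 lincRNAs were higher by edgeR, and 4 of 114 processed pseudogenes were lower.

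Many of these non-coding genes lie within an intron of a protein-coding gene on the same strand, where a read cannot be told apart from unspliced RNA of the host. There were 137 such pairs with both members tested, over 121 host genes, picked out after the gene values had been seen. The intronic gene had the larger log2 difference in 118 of 137 pairs. Medians over the pairs were 0.62 for the intronic genes and 0.16 for the hosts. A host with several intronic genes, such as Camk2d, enters once per pair, so the pairs are not independent. A gene could pass the level filter through either class, and few UMIs sufficed in the small sums of Malat1-rich rods. Intronic genes of low level could thus enter where they were high, such as Gm48231 (edgeR average 2.79 log2 CPM, difference 1.98). The count of pairs leans towards the intronic genes for this reason, by an amount that was not tested. Of the intronic genes 46 were called higher and none lower. The host was called higher in 12 of the 137 pairs and lower in 7, with Negr1 and Ank2 counted once per pair. Over all genes tested 7.83% were higher and 13.3% lower, and over protein-coding genes 6.50% and 11.4%. Gm37764 (chromosome 1, 150324538 to 150326687, plus strand) within Pdc was higher by 0.81 (edgeR adjusted p = 0.00247), while Pdc was lower by -0.83. Gm37262 within Cul3 was higher by 1.30, while Cul3, a ubiquitin ligase scaffold, stood at -0.42 and was not called. Gm42974 within Ank2 was higher by 0.94 and Ank2, an ankyrin, by 0.49, so host and intron could also rise together. Against rods at 10 to 25% Malat1 the intronic gene had the larger difference in 68 of 88 pairs, with medians of 0.40 and 0.10. The pairs were not followed in the strictest comparison.

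Protein-coding genes that were lower were shorter. Their median span from first to last exon was 10723 bp and their median exonic length 2556 bp, against 29217 and 5781 bp in genes that were higher and 23741 and 4557 bp in all tested. Of genes under 10 kb 5.64% were higher and 22.4% lower, and of genes over 100 kb 9.63% were higher and 2.84% lower. Spearman's rank correlation between span and log2 difference was 0.17 over the 8355 protein-coding genes, which are not independent replicates. Level and length are linked among them, and in 4 groups of rising expression the correlation was 0.054, -0.0051, 0.15 and 0.35.

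The lists were also followed over the whole Malat1 axis. From the rods under 5% Malat1 to those at 20 to 25%, the median over retinas of the summed phototransduction level went from 14.0% to 7.36% of UMIs without Malat1, that of ribosomal protein genes from 3.42% to 0.94%, and that of respiratory-chain genes from 4.85% to 1.78%. At 25 to 30% the same values were 6.93%, 0.84% and 1.64%. Transcripts of the speckle list went from 0.46% through 1.22% to 1.34%, and transcription factors from 0.83% through 1.29% to 1.36%. For these 5 lists most of the change lay below the 25% limit.

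**Figure D5:**
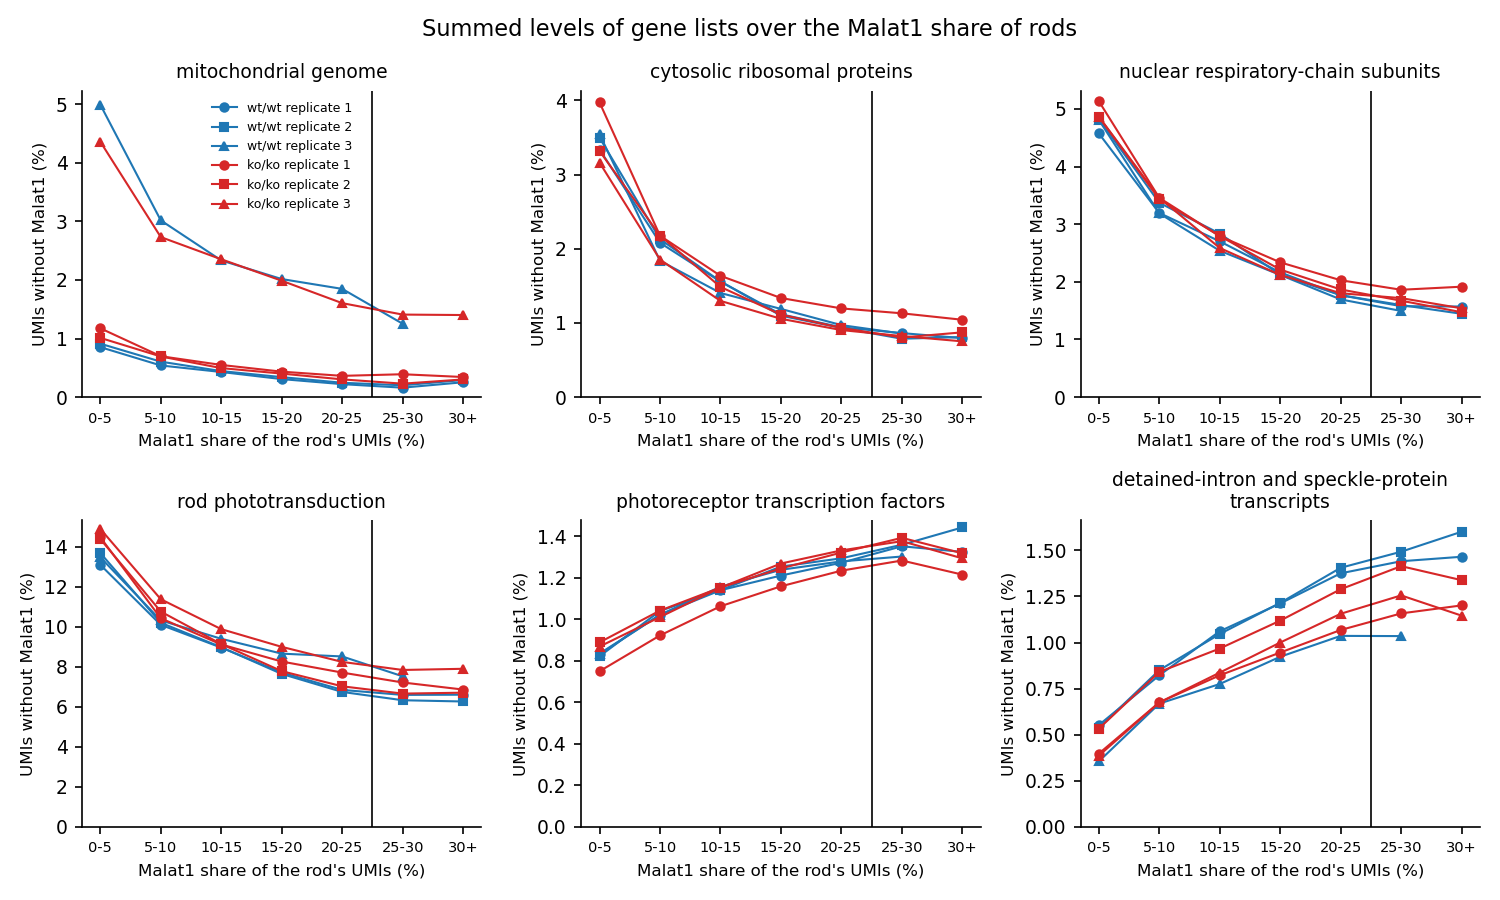
Summed level of 6 gene lists as a percent of UMIs without Malat1 (y axis) in rods binned by their Malat1 share (x axis), 1 line per retina; bins with under 20 rods are left out, and the vertical line marks the 25% limit. Mitochondrial, ribosomal, respiratory-chain and phototransduction genes fall up to the limit and the other 2 lists rise, with no step at it.

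Markers of other cell types were read in both classes. The 13 interneuron markers summed to 1050 to 1333 CPM in Malat1-rich rods and 612 to 762 in the other rods, higher in 6 of 6 retinas. Of the 6 tested, 2 were higher: Prkca, a kinase and marker of rod bipolar cells, at 799 ± 72.5 against 388 ± 67.8 CPM (log2 difference 0.76), and the glycine transporter Slc6a9 (0.81). The defining bipolar genes Trpm1 and Grm6 stood at 6.23 and 5.53 CPM against 8.88 and 8.72. Glial markers summed to 399 to 1224 against 362 to 874, and of 5 tested none was called by edgeR. Microglial markers summed to 58.3 to 111 against 26.1 to 72.5, RPE markers to 174 to 393 against 92.0 to 222, endothelial markers to 0 to 51.2 against 14.1 to 20.4, and blood markers to 30.7 to 182 against 183 to 3760. No marker of these lists was at 0 in all Malat1-rich rods except Dct and Hba-a2. The cone markers outside the rule summed to 359 to 485 against 276 to 383, with 0 of 2 called. The part of these transcripts in the gene results was not tested; without rods that held 2 or more interneuron or glial UMIs, 675 genes were higher and 1229 lower.

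The last comparisons asked whether Malat1-rich rods differed between genotypes. Of 3388 genes tested between ko/ko and wt/wt Malat1-rich rods, 0 were called by edgeR (0.0%), 0 by DESeq2 and 0 by limma-voom, and 124 had an unadjusted p under 0.05. Without ko/ko replicate 2, 7 were called, and without wt/wt replicate 3, mt-Cytb and mt-Nd1 were called higher in ko/ko. Either omission unbalances the batches. Without wt/wt replicate 3 the one batch 1 retina is ko/ko, so batch is mixed into the calls of mt-Cytb and mt-Nd1. Batch 2 still held both genotypes, and was not tested alone between them. There the mitochondrial share of Malat1-rich rods was 0.196% and 0.241% in wt/wt and 0.415% and 0.273% in ko/ko. Without ko/ko replicate 2, 3 of the 7 calls were mt-Co2, mt-Atp6 and Gm10925. The difference between Malat1-rich and other rods was not found to depend on genotype for any of 9859 genes (0 by edgeR, DESeq2 and limma-voom, 472 at an unadjusted p under 0.05). It was likewise not found to depend on batch for any gene (0 by all 3 tools, 769 or 7.80% unadjusted). In simulated counts edgeR recovered 0% of genes with a log2 change of 1 in both tests of dependence. At a log2 change of 2 it recovered 44.4% for genotype and 27.1% for batch, so these counts of 0 cannot decide the question. In batch 2 alone 656 genes were higher and 1138 lower, and 556 and 1100 of these were shared with the full comparison. The retinas of batch 2 are most of those in the full comparison, so this overlap is in large part built in. Batch 1 has only 1 retina of each genotype. In the strictest comparison 4 genes depended on batch: mt-Cytb (-0.81), mt-Nd4 (-0.78), mt-Nd1 (-0.73) and the mitochondrial-like gene Gm28437 (-1.01), each with a larger decrease in batch 1. Between genotypes within Malat1-rich rods, 50% of simulated log2 changes of 1 and 98.3% of those of 2 were recovered. Those counts were drawn with a set spread and no batches, which need not match these retinas. Differences of the size of the spread between retinas cannot be seen in these genotype and batch comparisons, and no statement of equality follows from them.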

How the data were processed

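The deposited table holds raw UMI counts per Ensembl gene and cell, made by the authors with Cell Ranger 3.1.0 per the labels (GRCm38), and a second deposited table, of another kind than counts (text annotation), gives each cell's sample and the cell type the authors assigned by clustering; doublet removal is not given in the sources used here. Gene names, classes and positions came from GENCODE M21. Cells were classed by the rule in the report, and counts were summed per retina and class. Sums were tested with edgeR 4.0.16 (TMM factors, filterByExpr, quasi-likelihood test, retina as a block; without the block 1189 genes were called), checked on simulated data; DESeq2 1.42.0 and limma 3.58.1 (R 4.3.3) were alternatives. Shares were tested by exact permutation over retinas (Python 3.11.15). The sums hold 17167 to 263302 UMIs without Malat1 in Malat1-rich rods, fewest in wt/wt replicate 3, and 1753461 to 3339130 in other rods. p-values of ko/ko against wt/wt measure the spread between these retinas. Those of Malat1-rich against other rods, and of its dependence on genotype or batch, measure how the difference within a retina varied between retinas. The rule, members and gene lists were chosen with earlier results of these data known. Named genes are the 12 largest called differences each way, pseudogenes excepted. These were taken among genes at an edgeR average (weighted by depth) of at least 5 log2 CPM, same direction in 6 of 6 retinas. Also named are the members of highest level and largest change from each list, and Dram2, Malat1 and Nrl. Other genes, including all intronic pairs and uncalled members, were named after their values were seen. Comparisons with rods at 10 to 25% Malat1 and with total UMIs as the scale were added after seeing the data. Some single-gene results are not reported here.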

Additional observations from a re-analysis of the deposited data

Results flagged for a closer look

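Cells to which the authors gave no type entered no comparison. Of the 539 such cells with at least 200 UMIs, 39 held at least 25% Malat1 (7.24%), beside 10.99% of rods, 8.11% of glia and 0.967% of interneurons over all retinas. They stand here because they lie outside the comparisons; the differences were not tested. The share was 15.2%, 16.9% and 0% in wt/wt replicates 1 to 3 and 4.72%, 10.6% and 3.60% in the ko/ko replicates, so the order of the retinas was close to that of the rods.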

How the results depend on the processing

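Between Malat1-rich and other rods 2085 genes were called. The count was 1305 with DESeq2 (375 higher), 3873 with a 20% Malat1 limit and 762 with 30% (43 higher). Among rods with at least 500 UMIs it was 437 (15 higher). It was 697 among rods with 150 to 400 UMIs without Malat1, 1019 against rods at 10 to 25% Malat1 and 55 with both restrictions. With no retina block it was 1189, and without one retina 1521 to 2147. No low-count filter gave 99 higher and 2267 lower genes; the cause was not tested. The 40% limit could not be fitted, since neither retina of batch 1 had such a rod. For ko/ko against wt/wt, the count of 0 became 1 with no filter (mt-Atp6) and 0 to 7 without one retina. It stayed 0 with batch as a covariate. It also stayed 0 with the replicate block, which pairs wt/wt and ko/ko retinas of the same number. Dependence on genotype was called for 1 gene, Ubap2l, with 150 to 400 UMIs, also in the strictest comparison; dependence on batch for 4 genes with RLE factors (Gngt1, Gm26699, Eif3e and Pde6g), 11 with no filter and 4 in the strictest comparison.

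Deviations of same-numbered wt/wt and ko/ko retinas correlated at 0.047, 0.139 and 0.153; the pair of replicates 3 also shares batch 1, and the other pairs share a number within batch 2. With the replicate block the share of Malat1-rich rods differed by -4.37 points (exact paired p = 0.5), and without wt/wt replicate 3 by -9.92. The mitochondrial difference was -0.535 points in the strictest comparison (exact p = 0.0625) and -0.905 to -0.534 without one retina, where 5 pairs cannot go below 0.0625. Its ko/ko minus wt/wt value was -0.132 at 30% Malat1 and -0.268 to 0.499 without one retina. That value was negative without ko/ko replicate 3 or wt/wt replicates 1 (-0.102) or 2 (-0.079). With the replicate block it was 0.106 points (exact sign-flip test, p = 0.25, which 3 pairs cannot go below). Rods minus interneurons was 2.47 at 30%, -0.080 at 40%, 2.36 above 500 UMIs and 8.06 to 11.7 without one retina. Rods minus glia was 7.17 at 20%, 1.42 thinned, -8.24 above 500 UMIs and -1.80 to 1.66 without one retina, positive without wt/wt replicate 2 (1.66) or ko/ko replicate 2 (0.442). Rods minus cone-marked cells was 0.066 at 40% and 4.34 to 6.13 without one retina. Of named genes, Hbb-bs turned to 0.52 and 0.28 in the added comparisons, and Dram2, not called, ran from -0.341 to 0.0239 without one retina and turned to 0.0409 with total UMIs, and over all alternatives ran from -1.29 (rods with at least 500 UMIs) to 0.0409. The genotype tests rest on 69 Malat1-rich rods in wt/wt replicate 3.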
